A study of Mus musculus with 18 samples.

Results

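The unfolded protein response and the chaperones of the endoplasmic reticulum (ER) were followed through 10 genes, *Hspa5*, *Hsp90b1*, *Herpud1*, *Dnajb9*, *Xbp1*, *Sdf2l1*, *Pdia4*, *Calr*, *Edem1* and *Creld2*, out of 54752 genes in the RNA tables. They were listed by symbol as genes that ER stress is known to induce. All 10 were found in the RNA tables and all 10 among the 22523 genes of the ribosome footprint tables. Their counts lay between 205 and 28644 per RNA library and between 49 and 9937 per footprint library, and all 10 passed the filter on low counts in every comparison.

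Cerebellum of 3-week-old mice was measured by RNA sequencing and by ribosome profiling, which counts the stretches of mRNA covered by ribosomes. There were 3 genotypes with 3 libraries each in each assay. The question for these genes is whether stress of the ER goes together with the integrated stress response of the mutants. All mice were on the C57BL/6J background, both sexes were used, and all, controls included, carried the C57BL/6J mutation in *n-Tr20*, a tRNA gene that reads the AGA codon. B6J mice had no other mutation. B6J.*Gtpbp1*-/- mice, called *Gtpbp1* mutants here, lacked the translational GTPase GTPBP1 because a PGK-Neo cassette replaced coding sequence of the gene. B6J-*Gtpbp2*-/- mice, called *Gtpbp2* mutants here, carried the nmf205 point mutation in the gene of the related GTPase GTPBP2. The RNA libraries held 37794333 to 52114145 counts in genes and the footprint libraries 3630823 to 10442573. The labels put the RNA libraries and the footprint libraries in separate batches, so assay and batch cannot be told apart. By *Ddx3y* level, males were 2 of 3 *Gtpbp1* mutant, 0 of 3 *Gtpbp2* mutant and 1 of 3 B6J libraries in RNA, and 1 of 3, 0 of 3 and 2 of 3 in footprints, so sex was not balanced between genotypes.

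The ER folds and assembles proteins that enter the secretory pathway. When unfolded proteins build up there, the membrane sensors IRE1 (*Ern1*), ATF6 and PERK (*Eif2ak3*) respond: IRE1 cuts an intron out of *Xbp1* mRNA, ATF6 is released from the membrane by cleavage, and PERK phosphorylates eIF2alpha. XBP1 and ATF6 then raise transcription of ER chaperones and of ER-associated degradation, while phosphorylated eIF2alpha lowers translation in general and raises that of ATF4. The kinases GCN2, PKR and HRI phosphorylate the same site in response to signals from outside the ER, so a rise of ATF4 targets can occur with or without induction of ER chaperones.

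Of the mutated genes, *Gtpbp1* fell in both assays in *Gtpbp1* mutants, while *Gtpbp2*, whose allele is a point mutation, was not called in *Gtpbp2* mutants. Levels are given for replicates 1, 2 and 3 in CPM, scaled over the 9 libraries of an assay by TMM normalisation. *Gtpbp1* RNA (ENSMUSG00000042535, chr15:79690845-79721479 in GRCm38) measured 44.0, 41.7 and 43.9 CPM in *Gtpbp1* mutants, 58.7, 72.2 and 65.7 in *Gtpbp2* mutants and 71.0, 77.8 and 66.7 in B6J. Its footprints measured 32.0, 25.5 and 35.6 CPM in *Gtpbp1* mutants, 79.4, 66.8 and 62.1 in *Gtpbp2* mutants and 73.6, 117 and 84.9 in B6J. In CPM every *Gtpbp1* mutant library lay below every other library in both assays. In TPM, which divides by the effective length of the transcripts, *Gtpbp1* RNA measured 34.5, 35.1 and 41.1 in *Gtpbp1* mutants, 40.3, 43.2 and 39.9 in *Gtpbp2* mutants and 43.5, 38.4 and 40.4 in B6J, which overlapped. The log2 fold change of *Gtpbp1* from B6J to *Gtpbp1* mutants was -0.73 in RNA (standard error 0.082, edgeR adjusted p 5.94e-05) and -1.56 in footprints (standard error 0.23, edgeR adjusted p 0.00676).

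*Gtpbp2* RNA (ENSMUSG00000023952, chr17:46161032-46169370) measured 109, 100.5 and 104 CPM in *Gtpbp1* mutants, 65.5, 75.4 and 72.7 in *Gtpbp2* mutants and 85.9, 74.0 and 88.1 in B6J. Its footprints measured 36.2, 43.3 and 58.3 CPM in *Gtpbp1* mutants, 28.9, 26.4 and 7.54 in *Gtpbp2* mutants and 44.8, 36.1 and 38.5 in B6J. In RNA the *Gtpbp2* mutant and B6J libraries overlapped in CPM, and in footprints every *Gtpbp2* mutant library lay below every other library, with replicate 3 the lowest. In TPM *Gtpbp2* RNA was higher in every mutant library than in B6J, at 139, 160.0 and 162 in *Gtpbp1* mutants, 127, 145 and 151 in *Gtpbp2* mutants and 114, 91.7 and 99.0 in B6J, so its direction in *Gtpbp2* mutants depends on the measure. Neither difference between *Gtpbp2* mutants and B6J passed an adjusted p of 0.05 in edgeR (log2 fold change -0.22, adjusted p 0.190 in RNA, and -0.97, adjusted p 0.321 in footprints). In *Gtpbp1* mutants *Gtpbp2* RNA rose by a log2 fold change of 0.34 (edgeR adjusted p 0.0154).

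Of the 10 genes, *Herpud1* alone was called higher in both mutants and both assays, and the large chaperones were not called higher in any. In RNA, 2 of 10 were called in *Gtpbp1* mutants against B6J (*Herpud1* higher, *Calr* lower), where 13.8% of 24577 genes tested were called at an edgeR adjusted p of 0.05. In *Gtpbp2* mutants 1 of 10 was called in RNA (*Herpud1*, higher), where 8.63% of 24859 genes were. In footprints 1 of 10 was called in *Gtpbp1* mutants (*Herpud1*, higher), where 0.745% of 13956 genes were, and 1 of 10 in *Gtpbp2* mutants (*Herpud1*, higher), where 2.94% of 13797 genes were. Both mutants were compared with the same B6J libraries, so the comparisons are not independent.

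Counted by libraries that do not overlap, 1 of 10 genes was higher in every *Gtpbp1* mutant RNA library than in every B6J library (*Herpud1*), as were 16.0% of all genes, and 3 of 10 were lower (*Xbp1*, *Sdf2l1* and *Calr*), as were 15.9% of all genes. In *Gtpbp2* mutants 1 of 10 was higher in RNA without overlap (*Herpud1*), as were 14.5% of all genes, and 2 of 10 were lower (*Sdf2l1* and *Calr*), as were 14.1%. In footprints of *Gtpbp1* mutants 6 of 10 were higher without overlap (*Hspa5*, *Herpud1*, *Dnajb9*, *Xbp1*, *Pdia4* and *Calr*) against 1256 of 13956 genes, and 0 of 10 lower against 8.80%. In footprints of *Gtpbp2* mutants 2 of 10 were higher without overlap (*Hspa5* and *Herpud1*) against 1523 of 13797 genes, and 1 of 10 lower (*Sdf2l1*) against 11.6%. The count of 0 concerns overlap of libraries, and in the fit of *Gtpbp1* mutant footprints 0 of 10 were lower by edgeR, by DESeq2 or at unadjusted p under 0.05. At unadjusted p under 0.05 there were 5 of 10 in footprints of *Gtpbp1* mutants, all higher, beside 1763 of 13956 genes. In footprints of *Gtpbp2* mutants there were 2 of 10, all higher, beside 2355 of 13797 genes. In RNA of *Gtpbp1* mutants there were 3 of 10 (1 higher, 2 lower), beside 6464 of 24577 genes. In RNA of *Gtpbp2* mutants there were 4 of 10 (1 higher, 3 lower), beside 5585 of 24859 genes.

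**Figure D1:**
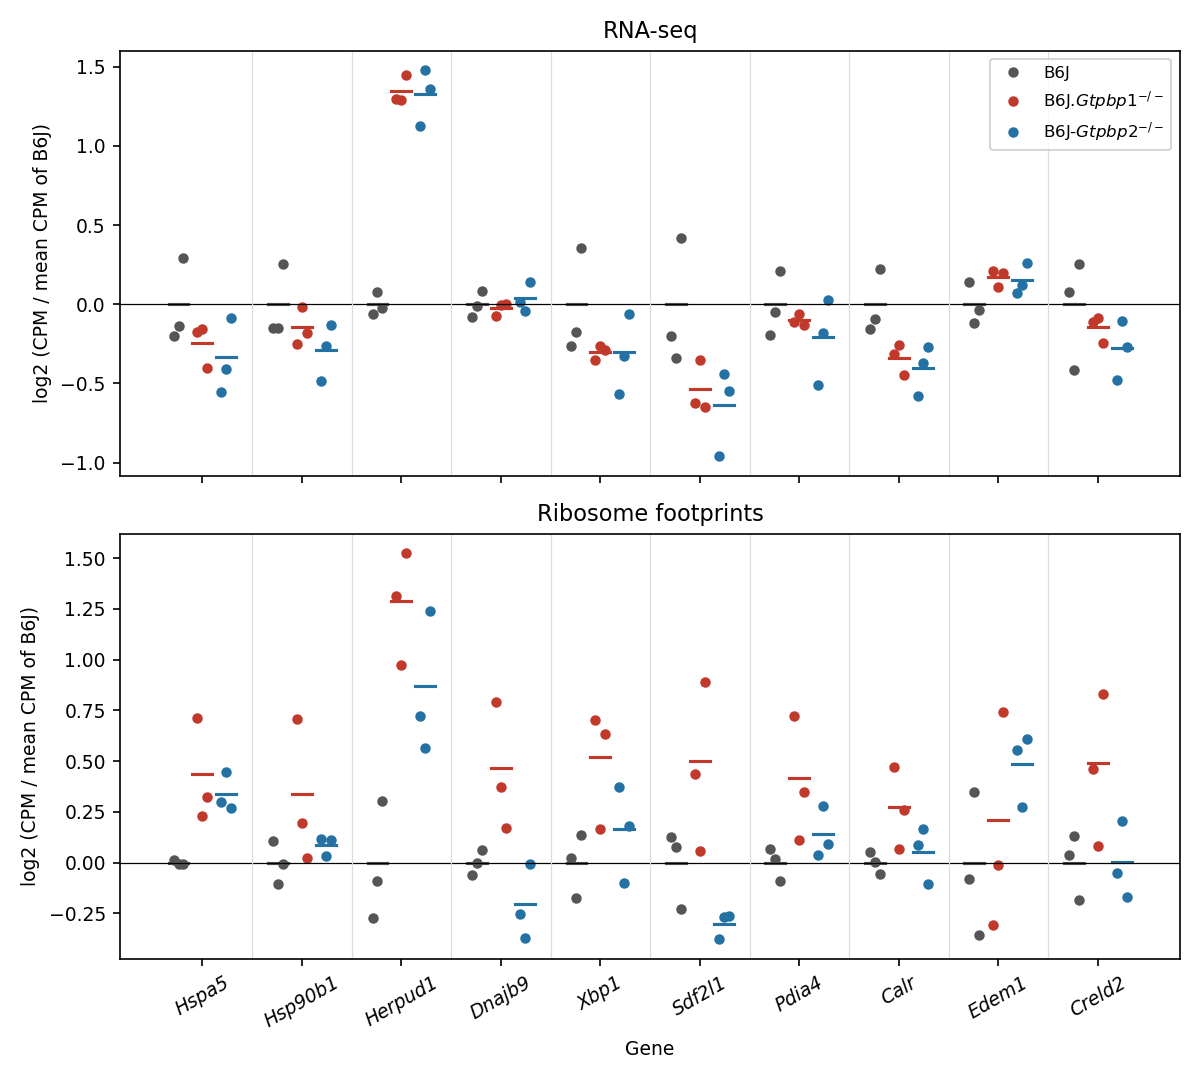
Log2 of CPM over the B6J mean CPM for each of the 10 genes in each library, with RNA in the upper panel and ribosome footprints in the lower panel; dots are libraries and bars are group means of 3 libraries. *Herpud1* is the gene whose 6 mutant libraries all lie above its 3 B6J libraries in both panels.

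The median log2 fold change of the 10 genes in RNA was -0.15 in *Gtpbp1* mutants (median of all genes 0.03) and -0.28 in *Gtpbp2* mutants (median of all genes 0.03). The medians in footprints were 0.45 in *Gtpbp1* mutants (all genes 0.01) and 0.10 in *Gtpbp2* mutants (all genes 0.01). In *Gtpbp1* mutants 2 of 10 genes had a log2 fold change above 0 in RNA (all genes 13008 of 24577) and 10 of 10 in footprints (7197 of 13956). In *Gtpbp2* mutants 3 of 10 were above 0 in RNA (13185 of 24859) and 7 of 10 in footprints (6988 of 13797). The medians depend on single libraries. On leaving out a library they ran from -0.26 to -0.0011 in RNA and from 0.35 to 0.56 in footprints of *Gtpbp1* mutants, and from -0.37 to -0.10 in RNA and from 0.049 to 0.15 in footprints of *Gtpbp2* mutants. Both RNA medians were nearest 0 without B6J replicate 3, which had the highest RNA level among B6J libraries for every gene of the list except *Herpud1* and *Edem1*. They were furthest from 0 without B6J replicate 2.

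*Herpud1* (ENSMUSG00000031770, chr8:94386438-94395377) encodes an ER membrane protein of the degradation machinery, which carries misfolded proteins to the proteasome. Its RNA measured 145, 144 and 161 CPM in *Gtpbp1* mutants, 129, 164 and 151 in *Gtpbp2* mutants and 56.5, 62.3 and 58.1 in B6J. All 6 mutant libraries lay above the B6J libraries, and the mutants overlapped with each other. In *Gtpbp1* mutants RNA rose 2.54-fold (log2 fold change 1.35, standard error 0.077, edgeR adjusted p 2.61e-07). In *Gtpbp2* mutants it rose 2.51-fold (log2 fold change 1.33, standard error 0.096, edgeR adjusted p 1.98e-05) and the direct comparison of the mutants was not called (log2 fold change 0.02, edgeR adjusted p 1.000).

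Footprints of *Herpud1* measured 319.9, 252 and 370.4 CPM in *Gtpbp1* mutants, 212, 190.1 and 304 in *Gtpbp2* mutants and 107, 121 and 159 in B6J. Again each mutant library lay above each B6J library, with *Gtpbp2* mutant replicate 2 the lowest mutant and B6J replicate 3 the highest control. Footprints rose 2.44-fold in *Gtpbp1* mutants (log2 fold change 1.29, standard error 0.21, edgeR adjusted p 0.0141) and 1.82-fold in *Gtpbp2* mutants (log2 fold change 0.86, standard error 0.20, edgeR adjusted p 0.0316). The direct comparison of *Gtpbp1* with *Gtpbp2* mutants gave a log2 fold change of 0.41 (edgeR adjusted p 0.510). The footprint call in *Gtpbp1* mutants ended without B6J replicate 1 (1.17, 0.125) or B6J replicate 2 (1.25, 0.0820), given as log2 fold change and edgeR adjusted p (adjusted p from 6.46e-06 to 0.125 over all alternatives). In *Gtpbp2* mutants it ended without *Gtpbp2* mutant replicate 1 (0.93, 0.0923), *Gtpbp2* mutant replicate 3 (0.64, 0.100), B6J replicate 1 (0.74, 0.135) or B6J replicate 2 (0.82, 0.141), with sex as a covariate (0.56, 0.509) and in a fit of all 9 libraries (0.86, 0.0563) (adjusted p from 0.00377 to 0.509 over all alternatives, edgeR and DESeq2).

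Most *Herpud1* TPM came from 1 transcript in every library, and a short transcript that was near 0 in B6J was present in the mutants. *Herpud1-205*, a protein-coding transcript of 1952 nucleotides, measured 124, 126 and 138 TPM in *Gtpbp1* mutants, 116, 151 and 123 in *Gtpbp2* mutants and 47.9, 53.4 and 46.7 in B6J. *Herpud1-204*, a transcript of 731 nucleotides annotated as a target of nonsense-mediated decay, measured 27.3, 18.0 and 28.4 TPM in *Gtpbp1* mutants, 10.3, 11.1 and 15.4 in *Gtpbp2* mutants and 0, 1.23 and 0 in B6J. Both were higher in each mutant library than in any B6J library, and *Herpud1-204* was higher in each *Gtpbp1* mutant library than in any *Gtpbp2* mutant library. Differences between transcripts were not tested.

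*Hspa5* (ENSMUSG00000026864, chr2:34771970-34777547) encodes BiP, the main Hsp70 chaperone of the ER, which also holds the sensors inactive. Its RNA measured 354, 358 and 302 CPM in *Gtpbp1* mutants, 273, 301 and 376 in *Gtpbp2* mutants and 347, 363 and 489 in B6J. The groups overlapped, and B6J replicate 3 was the highest of all 9 libraries. The log2 fold change was -0.24 in *Gtpbp1* mutants (edgeR adjusted p 0.261) and -0.34 in *Gtpbp2* mutants (edgeR adjusted p 0.226). With the replicate number as a block, *Hspa5* RNA was called lower in *Gtpbp2* mutants (-0.33, edgeR adjusted p 0.0281). Footprints of *Hspa5* measured 1307, 936 and 997 CPM in *Gtpbp1* mutants, 983, 1088 and 961 in *Gtpbp2* mutants and 806, 794 and 795 in B6J. Here every mutant library lay above the narrow B6J range, the highest being *Gtpbp1* mutant replicate 1. The differences did not pass the test over all genes, at a log2 fold change of 0.44 (standard error 0.19, edgeR adjusted p 0.343) and 0.33 (standard error 0.15, edgeR adjusted p 0.274).

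*Hsp90b1* (ENSMUSG00000020048, chr10:86690209-86705509) encodes GRP94, the Hsp90 chaperone of the ER. Its RNA measured 401, 471 and 419.6 CPM in *Gtpbp1* mutants, 339.8, 397 and 434 in *Gtpbp2* mutants and 430.2, 429.8 and 569 in B6J. Footprints measured 1200.2, 844 and 747 CPM in *Gtpbp1* mutants, 799, 752 and 795 in *Gtpbp2* mutants and 792, 684 and 732 in B6J. The groups overlapped in both assays, B6J replicate 3 was the highest in RNA and *Gtpbp1* mutant replicate 1 the highest in footprints. No comparison passed the test (log2 fold change -0.15 and -0.29 in RNA of *Gtpbp1* and *Gtpbp2* mutants, edgeR adjusted p 0.483 and 0.210, and 0.34 and 0.08 in footprints, edgeR adjusted p 0.533 and 0.849).

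*Calr* (ENSMUSG00000003814, chr8:84841850-84846934) encodes calreticulin, a lectin chaperone that binds glycoproteins and calcium. Its RNA measured 267, 278 and 243 CPM in *Gtpbp1* mutants, 222, 256 and 275 in *Gtpbp2* mutants and 298, 311 and 387 in B6J. Each mutant library lay below each B6J library. *Calr* RNA fell in *Gtpbp1* mutants by a log2 fold change of -0.34 (standard error 0.10, edgeR adjusted p 0.0457), while in *Gtpbp2* mutants the value of -0.40 did not pass (standard error 0.11, edgeR adjusted p 0.0523). The direct comparison of the mutants gave 0.06 (edgeR adjusted p 1.000).

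The *Calr* call rests on choices of fit. It ended without *Gtpbp1* mutant replicate 1 (-0.35, 0.100), *Gtpbp1* mutant replicate 2 (-0.38, 0.0881), *Gtpbp1* mutant replicate 3 (-0.29, 0.140), B6J replicate 2 (-0.39, 0.0655) or B6J replicate 3 (-0.22, 0.122), given as log2 fold change and edgeR adjusted p (from 0.00388 to 0.140 over all alternatives). It also ended with upper quartile scaling (-0.29, adjusted p 0.0923 in edgeR), with sex as a covariate (-0.34, 0.106), in a fit of all 9 libraries (-0.34, 0.0575) and with an offset for transcript length (-0.34, 0.102). The replicate number as a block ended it as well (-0.33, 0.132). In *Gtpbp2* mutants *Calr* was called by DESeq2 (-0.40, adjusted p 0.00947), with no low-count filter (-0.40, 0.00323), with that block (-0.40, 0.0146) and in the fit of all 9 libraries (-0.40, 0.0299), over a range of 0.00323 to 0.125 for all alternatives.

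Footprints of *Calr* measured 1199, 906 and 1034 CPM in *Gtpbp1* mutants, 919.5, 969 and 803 in *Gtpbp2* mutants and 896, 866 and 832 in B6J. They were above the B6J range in all *Gtpbp1* mutant libraries and overlapped it in *Gtpbp2* mutants, with no call (log2 fold change 0.28, edgeR adjusted p 0.563, and 0.04, edgeR adjusted p 0.925). A transcript of 943 nucleotides annotated with a retained intron, *Calr-204*, took 50.1% to 55.5% of the *Calr* TPM in the 9 libraries, so the level per length of *Calr* depends on how reads were shared among transcripts.

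*Pdia4* (ENSMUSG00000025823, chr6:47796141-47813430) encodes a disulfide isomerase of the ER. Its RNA measured 43.3, 45.0 and 42.7 CPM in *Gtpbp1* mutants, 32.9, 41.3 and 47.6 in *Gtpbp2* mutants and 40.9, 45.3 and 54.3 in B6J. Footprints measured 266, 174 and 205 CPM in *Gtpbp1* mutants, 165, 196 and 172 in *Gtpbp2* mutants and 169, 163 and 151 in B6J. RNA overlapped between all groups, and footprints were above the B6J range in each *Gtpbp1* mutant library, led by replicate 1. None of these differences was called (log2 fold change -0.10 and -0.21 in RNA, 0.42 and 0.13 in footprints of *Gtpbp1* and *Gtpbp2* mutants, the lowest edgeR adjusted p being 0.393).

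*Dnajb9* (ENSMUSG00000014905, chr12:44205559-44210326) encodes ERdj4, a J-domain partner of BiP that is a classic target of XBP1. Its RNA measured 44.2, 46.3 and 46.6 CPM in *Gtpbp1* mutants, 46.9, 45.2 and 51.3 in *Gtpbp2* mutants and 44.1, 46.1 and 49.4 in B6J. The 9 libraries lay close together, at a log2 fold change of -0.03 (standard error 0.082, edgeR adjusted p 0.890) in *Gtpbp1* mutants, which was 0.03 with upper quartile scaling, and 0.04 (standard error 0.087, edgeR adjusted p 0.857) in *Gtpbp2* mutants. Footprints measured 86.6, 64.9 and 56.4 CPM in *Gtpbp1* mutants, 42.0, 38.8 and 49.9 in *Gtpbp2* mutants and 48.1, 50.003 and 52.3 in B6J. All *Gtpbp1* mutant libraries lay above all others, and *Gtpbp2* mutants reached from below into the B6J range. The log2 fold change was 0.47 in *Gtpbp1* mutants (edgeR adjusted p 0.362), -0.21 in *Gtpbp2* mutants (0.600) and 0.66 between the mutants (standard error 0.20, 0.320).

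*Xbp1* (ENSMUSG00000020484, chr11:5520659-5525893) encodes the transcription factor that IRE1 activates by splicing. Its RNA measured 83.8, 89.2 and 87.7 CPM in *Gtpbp1* mutants, 72.4, 85.3 and 103 in *Gtpbp2* mutants and 89.4, 94.8 and 137 in B6J. Every *Gtpbp1* mutant library lay just below the B6J range, which B6J replicate 3 stretched upwards, and *Gtpbp2* mutants overlapped it. The log2 fold change was -0.30 in *Gtpbp1* mutants (edgeR adjusted p 0.250) and -0.31 in *Gtpbp2* mutants (edgeR adjusted p 0.403). Footprints of *Xbp1* measured 85.9, 59.2 and 81.8 CPM in *Gtpbp1* mutants, 68.3, 49.2 and 59.8 in *Gtpbp2* mutants and 53.5, 46.7 and 58.0 in B6J. *Gtpbp1* mutant libraries were all above the B6J range and *Gtpbp2* mutant libraries overlapped it, without a call (log2 fold change 0.52, edgeR adjusted p 0.297, and 0.16, edgeR adjusted p 0.721).

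The intron that IRE1 removes from *Xbp1* mRNA is 26 bases long and is placed here at chr11:5524278-5524303 (GRCm38, plus strand). A G opens this stretch and another G follows it, so a placement shifted by that base leaves the same spliced sequence. The intron is shown because its removal, not the amount of *Xbp1* RNA, is the direct mark of IRE1 activity. Of 4 annotated *Xbp1* transcripts 3 held these bases within an exon and 0 were annotated with them removed as an intron, so the tables, which count reads per annotated transcript, do not measure the spliced form. In the unspliced frame the coding sequence ends at position 5524904 and in the spliced frame at 5525242, 338 bases further on. The capitals mark the intron in the stretch chr11:5524263-5524318.
Xbp1 intron: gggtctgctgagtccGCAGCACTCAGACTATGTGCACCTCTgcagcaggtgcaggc

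*Sdf2l1* (ENSMUSG00000022769, chr16:17130138-17132383) encodes a soluble partner of the BiP cycle. Its RNA was the least abundant of the list in CPM, at 5.53, 6.66 and 5.43 in *Gtpbp1* mutants, 4.37, 6.26 and 5.82 in *Gtpbp2* mutants and 7.40, 6.74 and 11.4 in B6J. Each mutant library lay below each B6J library, and B6J replicate 3 was far above the others. The log2 fold change was -0.54 in *Gtpbp1* mutants (standard error 0.21, edgeR adjusted p 0.118) and -0.64 in *Gtpbp2* mutants (standard error 0.23, edgeR adjusted p 0.121), neither of them called. Footprints of *Sdf2l1* measured 30.6, 23.4 and 41.7 CPM in *Gtpbp1* mutants, 17.3, 18.7 and 18.8 in *Gtpbp2* mutants and 24.6, 23.8 and 19.2 in B6J. *Gtpbp2* mutants were all below the other groups, and *Gtpbp1* mutants overlapped B6J. The log2 fold change was 0.50 in *Gtpbp1* mutants (edgeR adjusted p 0.442), -0.31 in *Gtpbp2* mutants (0.523) and 0.80 between the mutants (standard error 0.24, 0.298).

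*Creld2* (ENSMUSG00000023272, chr15:88819646-88826683) encodes a secreted ER-resident protein with disulfide isomerase activity. Its RNA measured 15.4, 15.8 and 14.1 CPM in *Gtpbp1* mutants, 11.99, 15.5 and 13.9 in *Gtpbp2* mutants and 17.6, 12.5 and 19.9 in B6J. Footprints measured 31.9, 24.5 and 41.1 CPM in *Gtpbp1* mutants, 22.3, 26.7 and 20.6 in *Gtpbp2* mutants and 23.7, 25.3 and 20.3 in B6J. All groups overlapped in both assays. No difference was called, the log2 fold changes being -0.15 and -0.28 in RNA and 0.49 and -0.01 in footprints of *Gtpbp1* and *Gtpbp2* mutants (lowest edgeR adjusted p 0.408).

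*Edem1* (ENSMUSG00000030104, chr6:108828641-108859356) encodes a lectin that sends misfolded glycoproteins to degradation. Its RNA measured 28.1, 26.3 and 27.9 CPM in *Gtpbp1* mutants, 25.6, 26.5 and 29.2 in *Gtpbp2* mutants and 26.9, 22.4 and 23.7 in B6J. Footprints measured 9.37, 11.5 and 19.4 CPM in *Gtpbp1* mutants, 17.0, 14.0 and 17.7 in *Gtpbp2* mutants and 10.96, 14.8 and 9.06 in B6J. The RNA libraries overlapped only through *Gtpbp1* mutant replicate 2, *Gtpbp2* mutant replicates 1 and 2 and B6J replicate 1, and the footprint libraries overlapped at few counts. The log2 fold changes in RNA were 0.17 in *Gtpbp1* mutants and 0.15 in *Gtpbp2* mutants (edgeR adjusted p 0.333 and 0.467). With an offset for transcript length the value in *Gtpbp2* mutants was 0.49 and was called (edgeR adjusted p 0.0491, from 0.0491 to 0.792 over all alternatives), and *Edem1-202*, a transcript of 459 nucleotides with a retained intron, measured 3.83, 4.86 and 3.99 TPM there, 3.99, 0 and 5.81 in *Gtpbp1* mutants and 0, 1.60 and 1.05 in B6J. In footprints the log2 fold changes were 0.21 and 0.49 (edgeR adjusted p 0.853 and 0.379).

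**Figure D2:**
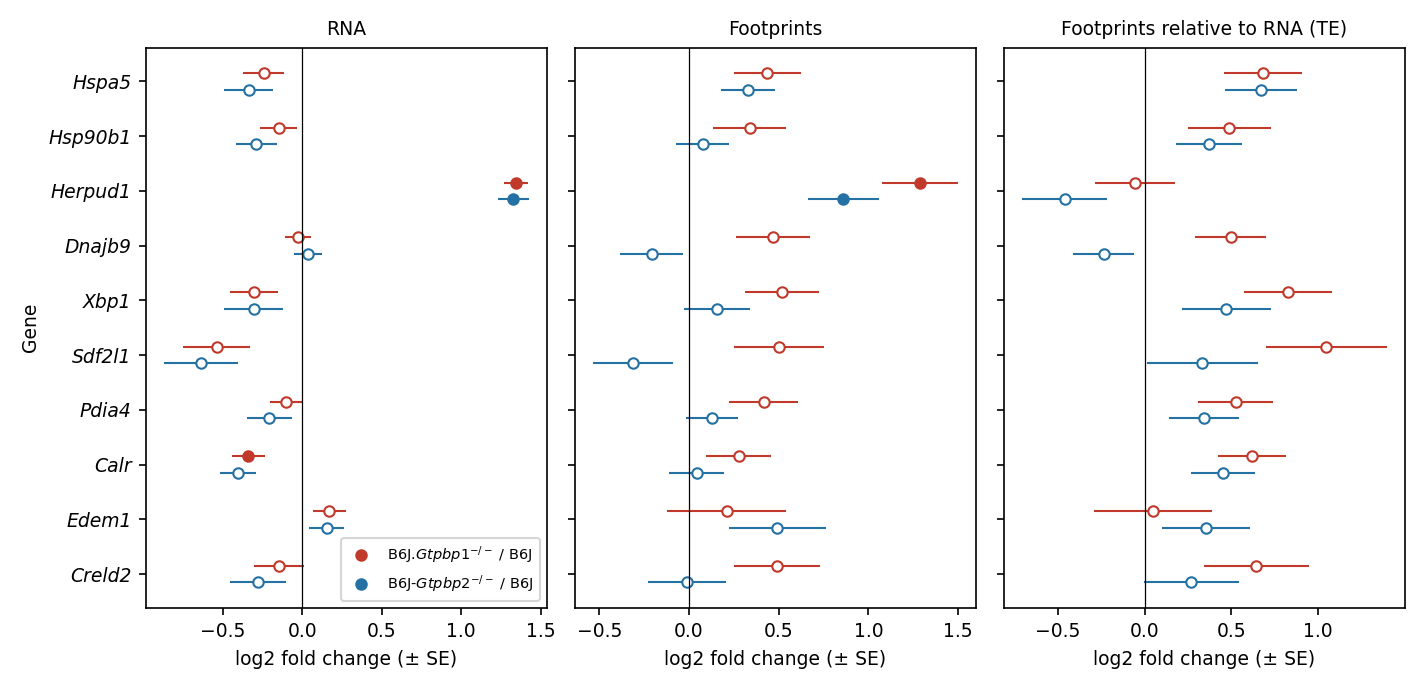
Log2 fold change of each of the 10 genes against B6J with its standard error, for RNA, footprints and translation efficiency, in *Gtpbp1* and *Gtpbp2* mutants; filled symbols passed an edgeR adjusted p of 0.05. *Herpud1* is filled in both mutants in RNA and in footprints, and *Calr* in RNA of *Gtpbp1* mutants.

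Between *Gtpbp1* and *Gtpbp2* mutants no gene of the list was called. In RNA 0 of 10 were called by edgeR and by DESeq2, where edgeR called 0.0595% of 25190 genes, and 0 of 10 had an unadjusted p under 0.05, as had 3.57% of all genes. Their median log2 fold change was 0.08 (all genes -0.00099), from -0.06 for *Dnajb9* to 0.14 for *Hsp90b1*, and the median ran from -0.026 (without *Gtpbp2* mutant replicate 1, with 2 of 10 genes above 0 in place of 9) to 0.13 on leaving out a library and was 0.025 with sex as a covariate. In footprints 0 of 10 were called by edgeR and by DESeq2, where edgeR called 0% of 14142 genes, and 2 of 10 had an unadjusted p under 0.05 (*Dnajb9* and *Sdf2l1*, both higher in *Gtpbp1* mutants), as had 10.8% of all genes. The median was 0.31 (all genes 0.00078), and 9 of 10 genes were above 0. On leaving out a library the median ran from 0.19 to 0.46, with 2 to 5 genes at unadjusted p under 0.05, and it was 0.18 with sex as a covariate. Over all genes, 798 to 1769 had such a p on leaving out a library. The fit with 5 of the 10 genes, without *Gtpbp1* mutant replicate 2, had 1255 of 13924.

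Translation efficiency is the change in footprints beyond the change in RNA, tested as the interaction of assay and genotype over 12 libraries. In *Gtpbp1* mutants 0 of 10 genes were called by edgeR and by DESeq2, where edgeR called 0% of 13086 genes, and 7 of 10 had an unadjusted p under 0.05, all of them higher, where 8.94% of all genes had one. Their median log2 change was 0.57 (all genes 0.03), led by *Sdf2l1* at 1.05 (standard error 0.35), *Xbp1* at 0.83 (0.25), *Hspa5* at 0.68 (0.22), *Creld2* at 0.64 (0.30) and *Calr* at 0.62 (0.20), with an edgeR adjusted p of 0.558 for *Creld2* and 0.477 for each of the others. *Herpud1*, whose footprints and RNA both rose, was at -0.05 (edgeR adjusted p 0.966), and *Edem1* was also near 0 at 0.05 (edgeR adjusted p 0.981). For other lists, described below, the medians were 0.64 for bone and connective tissue markers and 0.49 for oligodendrocyte markers. Each had 6 of 6 tested genes above 0 and 3 at unadjusted p under 0.05. Further ER folding genes were at 0.21 and ER translocation genes at 0.20 (16 of 16 above 0). Skeletal muscle markers were at 1.23, but only 3 of 6 passed the filter here, and 1 of 6 in *Gtpbp2* mutants. That muscle median was thus partly fixed by the filter, and no conclusion is drawn from it. ATF4 targets (-0.27), granule neuron markers (-0.11) and ER stress sensing genes (-0.07) had medians below 0.

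In *Gtpbp2* mutants 0 of 10 genes were called for translation efficiency by edgeR and by DESeq2, where edgeR called 0.00773% of 12931 genes, and 2 of 10 had an unadjusted p under 0.05 (*Hspa5* and *Calr*, both higher), as had 1554 of 12931 genes. The median log2 change was 0.35 (all genes 0.03), from -0.46 for *Herpud1* (edgeR adjusted p 0.473) to 0.67 for *Hspa5* (edgeR adjusted p 0.246). Without the RNA and footprint libraries of B6J replicate 3, which were left out together, the median was 0.40 in *Gtpbp1* mutants, with 2 of 10 genes at unadjusted p under 0.05, beside 1858 of 12981 genes, and 0.15 in *Gtpbp2* mutants, with 1 of 10, beside 2132 of 12773 genes. With all libraries, the highest medians of other lists in *Gtpbp2* mutants were those of choroid plexus and of blood and antibody-secreting cell markers. Choroid plexus markers were at 1.05, with 6 of 6 above 0 and 0 at unadjusted p under 0.05 in edgeR. Blood markers (4 tested) were at 1.00, with 3 above 0 and 1 lower at unadjusted p under 0.05. Further medians included 0.73 for Purkinje cell, 0.14 for oligodendrocyte and -0.62 for granule neuron markers. ATF4 targets were at -0.39.

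Marker genes of other tissues were measured in the same libraries. The 8 markers of bone and connective tissue, whose cells secrete much protein, summed to 1739, 1484 and 2815 footprint CPM in *Gtpbp1* mutants, 711, 1142 and 565 in *Gtpbp2* mutants and 343, 804 and 969 in B6J. *Gtpbp1* mutants were above all other libraries. The most abundant was *Col1a1*, at 948, 833 and 1660.4 CPM in *Gtpbp1* mutants, 314, 537 and 207 in *Gtpbp2* mutants and 109.9, 345 and 528 in B6J, and *Ibsp* was at 0 in B6J replicates 1 and 2. By edgeR 0 of 8 were called in footprints of either mutant, 5 of 8 had an unadjusted p under 0.05 in *Gtpbp1* mutants (1763 of 13956 genes had) and 0 of 8 in *Gtpbp2* mutants (2355 of 13797 genes had), and DESeq2 called 1 of 8 (*Col1a2*, higher) in *Gtpbp1* mutants and 0 of 8 in *Gtpbp2* mutants. Between the mutants all 8 were higher in *Gtpbp1* mutant footprints, with 0 called by edgeR, 5 at unadjusted p under 0.05 and 3 called by DESeq2 (*Bglap*, *Col1a1* and *Col1a2*). In RNA the same markers summed to 183, 218 and 178 CPM in *Gtpbp1* mutants, 129, 202 and 170.0 in *Gtpbp2* mutants and 178, 178 and 141 in B6J, with *Ibsp* at 0 in *Gtpbp1* mutant replicates 2 and 3, *Gtpbp2* mutant replicate 3 and B6J replicate 1, and *Bglap* at 0 in B6J replicate 3. Their part in the footprint levels of the 10 genes was not tested.

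Other marker lists of secretory or admixed cells varied among libraries. Skeletal muscle markers (6 genes, most abundant *Acta1*) summed to 34.3, 16.1 and 46.9 footprint CPM in *Gtpbp1* mutants, 4.06, 7.70 and 3.87 in *Gtpbp2* mutants and 7.61, 20.3 and 14.1 in B6J. In *Gtpbp2* mutants *Myh1* and *Myh4* were at 0 in replicate 1, *Mylpf* and *Tnnt3* in replicate 2 and *Ckm* in replicate 3, and in B6J *Myh1* and *Ckm* were at 0 in replicate 1 and *Tnnt3* in replicate 2. Choroid plexus markers (6 genes, most abundant *Ttr*, none at 0) summed to 13831, 224 and 12161 footprint CPM in *Gtpbp1* mutants, 511, 9633 and 9737 in *Gtpbp2* mutants and 5704, 3851 and 77.1 in B6J, which splits each group. Blood and antibody-secreting cell markers (7 genes, most abundant *Hbb-bs*) summed to 1772, 623 and 1068 CPM in *Gtpbp1* mutants, 731, 2539.7 and 616 in *Gtpbp2* mutants and 517, 356 and 769 in B6J footprints. *Mzb1* was at 0 in all footprint libraries except replicate 2 of each mutant, and *Jchain* in *Gtpbp1* mutant replicates 1 and 2 and B6J replicates 1 and 2. By edgeR 0 genes of these 3 lists were called in footprints of either mutant. At unadjusted p under 0.05 there were 2 of 6 muscle, 0 of 6 choroid plexus and 3 of 5 tested blood markers in *Gtpbp1* mutants, where DESeq2 called 1 muscle marker (*Myh1*), 0 choroid plexus markers and 2 blood markers (*Hbb-bs* and *Ighm*), all higher. In *Gtpbp2* mutants there were 1 of 1 tested, 0 of 6 and 0 of 4 tested, and DESeq2 called 1 (*Acta1*, lower), 0 and 0. Between the mutants edgeR called 0 in footprints, 5 of 5 tested muscle, 0 of 6 choroid plexus and 2 of 5 tested blood markers had an unadjusted p under 0.05, and DESeq2 called 2 (*Acta1* and *Myh4*), 0 and 1 (*Ighm*), all higher in *Gtpbp1* mutants. Muscle markers other than *Acta1* passed the filter only in comparisons that held the *Gtpbp1* mutant libraries, where the muscle sum was above that of *Gtpbp2* mutants. Their muscle counts were thus partly fixed by the filter, and no conclusion is drawn from them. In RNA 2 of 6 tested blood markers (*Ighm* and *Alas2*) were called higher in *Gtpbp1* mutants and 0 in *Gtpbp2* mutants (1 at unadjusted p under 0.05 and 1 by DESeq2, *Ighm*), 0 muscle and choroid plexus markers were called in either by edgeR, by DESeq2 or at unadjusted p under 0.05, and among bone and connective tissue markers *Col3a1* was called higher in *Gtpbp1* mutants and *Dmp1* lower in both. Marker genes named here and below as called were named after their values were seen.

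Markers of cerebellar cells also differed in RNA. There 8 of the 10 genes in *Gtpbp1* mutants and 7 in *Gtpbp2* mutants had a log2 fold change below 0, with 1 and 0 called lower by edgeR. Over all genes, 11569 of 24577 and 11674 of 24859 were below 0, and 1949 and 1248 were called lower. Granule neuron markers (6 genes, most abundant *Cbln3*, none at 0) summed to 3294, 3284 and 3802 CPM in *Gtpbp1* mutants, 3497, 3770.5 and 3259.8 in *Gtpbp2* mutants and 4829, 5219.8 and 5051 in B6J. All mutant sums lay below all B6J sums, and edgeR called 5 of 6 lower in *Gtpbp1* mutants (*Gabra6*, *Neurod1*, *Cbln3*, *Etv1* and *Zic1*) and the same without *Zic1* in *Gtpbp2* mutants. Microglia markers (6 genes, most abundant *Csf1r*, none at 0) summed to 149, 129.5 and 123 CPM in *Gtpbp1* mutants, 133, 126 and 137 in *Gtpbp2* mutants and 72.4, 73.8 and 76.2 in B6J, with 4 of 6 called higher in *Gtpbp1* mutants (*Csf1r*, *Cx3cr1*, *Aif1* and *C1qa*) and the same without *Aif1* in *Gtpbp2* mutants. Oligodendrocyte markers (6 genes, most abundant *Mbp*, none at 0) summed to 8296, 8338 and 7166 CPM in *Gtpbp1* mutants, 12086, 9038 and 9640.0 in *Gtpbp2* mutants and 11227, 9857 and 11457 in B6J, with 6 of 6 called lower in *Gtpbp1* mutants and 0 of 6 in *Gtpbp2* mutants (0 by DESeq2 and 0 at unadjusted p under 0.05), and edgeR called 0 of 6 between the mutants (5 at unadjusted p under 0.05, all lower in *Gtpbp1* mutants, and 1 by DESeq2, *Mobp*). In bulk tissue fewer cells of a type and less RNA per cell cannot be told apart, and the part of these lists in the RNA levels of the 10 genes was not tested.

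Purkinje cell markers (6 genes, most abundant *Itpr1*, none at 0) summed to 7245, 6495 and 8318 RNA CPM in *Gtpbp1* mutants, 6559, 7342 and 6196 in *Gtpbp2* mutants and 8685, 9872 and 7549.7 in B6J, with *Car8* called lower in both mutants and *Ppp1r17* and *Calb1* in *Gtpbp2* mutants as well. Astrocyte and Bergmann glia markers (6 genes, most abundant *Slc1a3*, none at 0) summed to 3172, 2718 and 3210.5 CPM in *Gtpbp1* mutants, 2797, 3172 and 2799 in *Gtpbp2* mutants and 3399.7, 3612 and 3051 in B6J, with *Gfap* called higher and *Hopx*, *Slc1a3* and *Aldh1l1* lower in both. In footprints granule neuron markers (most abundant *Gabra6*) summed to 2452, 1755 and 2432 CPM in *Gtpbp1* mutants, 1635, 1351 and 1536 in *Gtpbp2* mutants and 2601, 4249 and 3195 in B6J. There 5 of 6 were called lower in *Gtpbp2* mutants (*Gabra6*, *Neurod1*, *Cbln3*, *Zic1* and *Rbfox3*) and 0 of 6 in *Gtpbp1* mutants (0 by DESeq2 and 4 at unadjusted p under 0.05), and the direct comparison of the mutants called 0 of 6 by edgeR and by DESeq2 (5 at unadjusted p under 0.05, all higher in *Gtpbp1* mutants). Microglia markers summed to 358, 209 and 405 footprint CPM in *Gtpbp1* mutants, 208, 212 and 278 in *Gtpbp2* mutants and 143, 172 and 142 in B6J, with *C1qa* called higher in each mutant by edgeR, and by DESeq2 with *Csf1r* and *Cx3cr1* besides in *Gtpbp1* mutants. For Purkinje cells, astrocytes and oligodendrocytes 0 of 6 markers each were called in footprints of either mutant by edgeR. At unadjusted p under 0.05 there were 1, 2 and 0 in each mutant, all higher except 1 of the 2 astrocyte markers in *Gtpbp2* mutants. DESeq2 called 0, 1 (*Gfap*) and 0 in *Gtpbp1* mutants and 1 (*Itpr1*), 1 (*Gfap*) and 0 in *Gtpbp2* mutants, each of these higher.

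Compared per length of transcript, the lectin and Hsp chaperones were the most abundant of the list in B6J RNA. In TPM, as mean and standard deviation of 3 libraries, *Calr* was at 436 ± 66.3, *Hsp90b1* at 359 ± 55.7 and *Hspa5* at 334 ± 55.1, whose ranges overlapped. *Xbp1* followed at 99.5 ± 21.1, apart from *Herpud1* at 60.6 ± 2.96. *Herpud1* was in turn apart from *Dnajb9* at 47.1 ± 2.51, as was *Dnajb9* from *Pdia4* at 36.5 ± 5.11. *Pdia4* was apart from *Creld2* at 23.8 ± 5.31, *Creld2* overlapped *Sdf2l1* at 15.2 ± 4.41, and *Edem1* was the lowest at 9.84 ± 1.28, below every *Sdf2l1* library. In the mutants *Herpud1* measured 183, 179 and 206 TPM (*Gtpbp1*) and 151, 193 and 180.2 TPM (*Gtpbp2*), above *Xbp1* in each of these libraries, at 86.1, 92.6 and 91.2 and 74.7, 90.6 and 109.8.

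Footprints per kilobase of coding sequence kept *Calr* first in B6J at 693 ± 25.4 CPM per kilobase, then *Hspa5* at 406 ± 3.32 and *Hsp90b1* at 306 ± 22.6, with no overlap between neighbours. *Herpud1* at 109.7 ± 22.9 lay above *Pdia4* at 83.8 ± 4.65 in every library, *Pdia4* lay just above *Dnajb9* at 75.3 ± 3.13, and *Dnajb9* overlapped *Xbp1* at 65.8 ± 7.10. *Sdf2l1* at 34.0 ± 4.38, *Creld2* at 22.0 ± 2.43 and *Edem1* at 5.93 ± 1.48 closed the order, each apart from the next. *Herpud1* footprints reached 273, 215 and 316 CPM per kilobase in *Gtpbp1* mutants and 181, 162 and 259 in *Gtpbp2* mutants.

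The 3 sensors were measured as well. *Ern1* RNA measured 17.8, 17.9 and 21.0 CPM in *Gtpbp1* mutants, 19.9, 20.2 and 21.1 in *Gtpbp2* mutants and 16.3, 15.7 and 17.4 in B6J, with every mutant library above B6J but no call (log2 fold change 0.20 and 0.31, edgeR adjusted p 0.304 and 0.110). Its footprints measured 10.4 to 15.4 CPM in *Gtpbp2* mutants, above B6J at 7.27 to 9.85, again without a call. In *Gtpbp1* mutants they measured 8.04 to 10.4 and overlapped B6J. Footprints of *Eif2ak3* and *Atf6* overlapped B6J in both mutants. *Eif2ak3* RNA measured 43.3, 38.9 and 42.6 CPM in *Gtpbp1* mutants, 39.5, 43.8 and 42.4 in *Gtpbp2* mutants and 45.2, 46.3 and 42.1 in B6J, overlapping in all groups (-0.10 and -0.09, edgeR adjusted p 0.528 and 0.611). *Atf6* RNA measured 103, 108 and 139.8 CPM in *Gtpbp1* mutants, 85.8, 117 and 122 in *Gtpbp2* mutants and 91.3, 96.2 and 78.8 in B6J. *Gtpbp1* mutants were all above B6J, with replicate 3 far above, and *Gtpbp2* mutants overlapped B6J.

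*Atf6* RNA rose in *Gtpbp1* mutants (log2 fold change 0.40, edgeR adjusted p 0.0442) and was not called in *Gtpbp2* mutants (0.29, 0.217), and the direct comparison gave 0.11 (edgeR adjusted p 1.000). The call in *Gtpbp1* mutants ended without *Gtpbp1* mutant replicate 2 (0.45, 0.0586), *Gtpbp1* mutant replicate 3 (0.25, 0.123), B6J replicate 1 (0.41, 0.105), B6J replicate 2 (0.45, 0.0585) or B6J replicate 3 (0.31, 0.105), and with sex as a covariate (0.43, 0.0509), in a fit of all 9 libraries (0.40, 0.0996) or with an offset for transcript length (0.38, 0.0818), over a range of 9.70e-05 to 0.123, and *Atf6* was called in *Gtpbp2* mutants without *Gtpbp2* mutant replicate 1 (0.43, 0.0162), as log2 fold change and edgeR adjusted p, with the range of adjusted p over all alternatives. Its relative *Atf6b* fell in both mutants (-0.31 and -0.32, edgeR adjusted p 0.0226 and 0.0483). That call ended in *Gtpbp1* mutants without *Gtpbp1* mutant replicate 1 (-0.28, 0.0812), *Gtpbp1* mutant replicate 3 (-0.30, 0.0650), B6J replicate 1 (-0.32, 0.0603) or B6J replicate 3 (-0.27, 0.0504), and with upper quartile scaling (-0.26, 0.0563), with sex as a covariate (-0.29, 0.0802) or with an offset for transcript length (-0.27, 0.144), over a range of 0.00780 to 0.144 and in *Gtpbp2* mutants without *Gtpbp2* mutant replicate 1 (-0.30, 0.0831), *Gtpbp2* mutant replicate 3 (-0.28, 0.182), B6J replicate 1 (-0.33, 0.121), B6J replicate 2 (-0.36, 0.0783) or B6J replicate 3 (-0.27, 0.102), and with upper quartile scaling (-0.28, 0.0786), with sex as a covariate (-0.36, 0.0820) or with an offset for transcript length (-0.32, 0.129), over a range of 0.0183 to 0.182. Of the 12 genes of ER stress sensing and signalling, edgeR called 1 higher and 1 lower in *Gtpbp1* mutant RNA (median log2 fold change 0.14), beside 13.8% of all genes. Of 11 tested in *Gtpbp2* mutants it called 0 higher and 1 lower (median 0.09), beside 8.63% of all genes, and DESeq2 gave the same counts in both. In footprints 0 of 11 were called by edgeR or by DESeq2 in either mutant (unadjusted p under 0.05 for 1 and 2, beside 1763 of 13956 and 2355 of 13797 genes, medians -0.01 and -0.01).

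The other ER lists had RNA medians from -0.12 to -0.01, and over all genes edgeR called 13.8% in *Gtpbp1* and 8.63% in *Gtpbp2* mutant RNA. Of 27 further ER folding genes, edgeR called 1 higher and 1 lower in RNA of each mutant (medians -0.01 and -0.06), and DESeq2 called 2 higher and 3 lower in *Gtpbp1* mutants and 1 higher and 3 lower in *Gtpbp2* mutants. At unadjusted p under 0.05 there were 9 of 27 in *Gtpbp1* mutants (3 higher, 6 lower), beside 6464 of 24577 genes, and 12 of 27 in *Gtpbp2* mutants (3 higher, 9 lower), beside 5585 of 24859 genes. *Ero1l*, the oxidase that recharges disulfide isomerases, rose in *Gtpbp1* mutants (0.32, edgeR adjusted p 0.0132), was not called in *Gtpbp2* mutants (0.22, 0.183) and was not called between them (0.11, 1.000). The *Gtpbp1* call ended without *Gtpbp1* mutant replicate 2 (0.32, 0.0588) or *Gtpbp1* mutant replicate 3 (0.28, 0.0540), and with an offset for transcript length (0.13, 0.670), over a range of 0.00277 to 0.670, and *Gtpbp2* mutants were called without *Gtpbp2* mutant replicate 1 (0.30, 0.0369). *Nucb2*, a calcium-binding secretory protein, rose in *Gtpbp2* mutants (0.78, edgeR adjusted p 0.0276) and was not called in *Gtpbp1* mutants by edgeR (0.57, 0.0836, by DESeq2 0.57, 0.0494, direct comparison -0.21, 1.000), and its call ended without *Gtpbp2* mutant replicate 1 (0.77, 0.0506), *Gtpbp2* mutant replicate 3 (0.69, 0.134), B6J replicate 1 (0.87, 0.0546), B6J replicate 2 (0.78, 0.0898) or B6J replicate 3 (0.70, 0.0563), and with sex as a covariate (0.77, 0.0930) or with an offset for transcript length (0.75, 0.0639), over a range of 0.00200 to 0.134. *Fkbp2*, a prolyl isomerase of the ER, fell in both (-0.61 and -0.60, edgeR adjusted p 0.0221 and 0.0163). Its call ended in *Gtpbp1* mutants without *Gtpbp1* mutant replicate 1 (-0.66, 0.0578), *Gtpbp1* mutant replicate 3 (-0.47, 0.0529), B6J replicate 1 (-0.58, 0.0772) or B6J replicate 3 (-0.51, 0.0502), and with sex as a covariate (-0.61, 0.0744) or with an offset for transcript length (-0.50, 0.0742), over a range of 8.23e-07 to 0.0772 and in *Gtpbp2* mutants without B6J replicate 1 (-0.57, 0.0782), and with an offset for transcript length (-0.55, 0.0527), over a range of 5.98e-05 to 0.0782.

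Among 18 genes of ER-associated degradation, edgeR called 2 lower in *Gtpbp1* mutant RNA and DESeq2 called 5, all lower (7 at unadjusted p under 0.05, 6 of them lower). In *Gtpbp2* mutants edgeR and DESeq2 called 0 (3 at unadjusted p under 0.05, all lower), and the medians were -0.09 and -0.12. The edgeR calls were *Aup1* (-0.33, edgeR adjusted p 0.0242, in *Gtpbp2* mutants -0.26, 0.110, direct comparison -0.07, 1.000) and *Os9* (-0.28, edgeR adjusted p 0.0478, in *Gtpbp2* mutants -0.21, 0.214, direct comparison -0.07, 1.000). The *Aup1* call ended without *Gtpbp1* mutant replicate 2 (-0.32, 0.102), *Gtpbp1* mutant replicate 3 (-0.30, 0.0811) or B6J replicate 1 (-0.27, 0.105), and with upper quartile scaling (-0.28, 0.0561), with sex as a covariate (-0.32, 0.0771) or with an offset for transcript length (-0.20, 0.323), over a range of 0.00829 to 0.323. The *Os9* call ended without *Gtpbp1* mutant replicate 2 (-0.21, 0.226), *Gtpbp1* mutant replicate 3 (-0.25, 0.137), B6J replicate 1 (-0.27, 0.138), B6J replicate 2 (-0.29, 0.108) or B6J replicate 3 (-0.29, 0.0540), and with upper quartile scaling (-0.23, 0.101), with sex as a covariate (-0.29, 0.103), in a fit of all 9 libraries (-0.28, 0.0815) or with an offset for transcript length (-0.27, 0.110), over a range of 0.0104 to 0.226, and *Os9* was called in *Gtpbp2* mutants without *Gtpbp2* mutant replicate 1 (-0.30, 0.0398). Of 17 translocation genes, *Ssr3*, a subunit of the translocon-associated complex, was the only edgeR call, higher in *Gtpbp1* mutants (0.25, edgeR adjusted p 0.0310, in *Gtpbp2* mutants 0.21, 0.114, direct comparison 0.04, 1.000), and it ended without *Gtpbp1* mutant replicate 1 (0.24, 0.0717), *Gtpbp1* mutant replicate 2 (0.27, 0.0757), *Gtpbp1* mutant replicate 3 (0.24, 0.0668), B6J replicate 1 (0.23, 0.138) or B6J replicate 2 (0.25, 0.0780), and with sex as a covariate (0.26, 0.0831) or with an offset for transcript length (0.25, 0.0641), over a range of 0.00492 to 0.138. In *Gtpbp1* mutants DESeq2 called 3 of 17, *Ssr3* and 2 that were lower (3 at unadjusted p under 0.05). In *Gtpbp2* mutants edgeR and DESeq2 called 0 of 17 (4 at unadjusted p under 0.05), and the medians were -0.01 and -0.05.

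In footprints edgeR called 0 genes of the folding, degradation and translocation lists in either mutant, and DESeq2 called 2, both higher and named after their values were seen, the secreted ER stress factor *Manf* in *Gtpbp1* mutants and the degradation gene *Selenos* in *Gtpbp2* mutants. At unadjusted p under 0.05 there were 1 of 27, 1 of 18 and 0 of 16 tested genes of these lists in *Gtpbp1* mutants, beside 1763 of 13956 genes, and 2, 3 and 3 in *Gtpbp2* mutants, beside 2355 of 13797 genes. The footprint medians in *Gtpbp1* mutants were 0.23 for folding, with 24 of 27 genes above 0, 0.03 for degradation and 0.21 for translocation, beside 0.45 for the 10 genes and 0.01 for all genes. In *Gtpbp2* mutants they were 0.03, -0.12 and -0.02, beside 0.10 for the 10 genes and 0.01 for all genes.

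**Figure D3:**
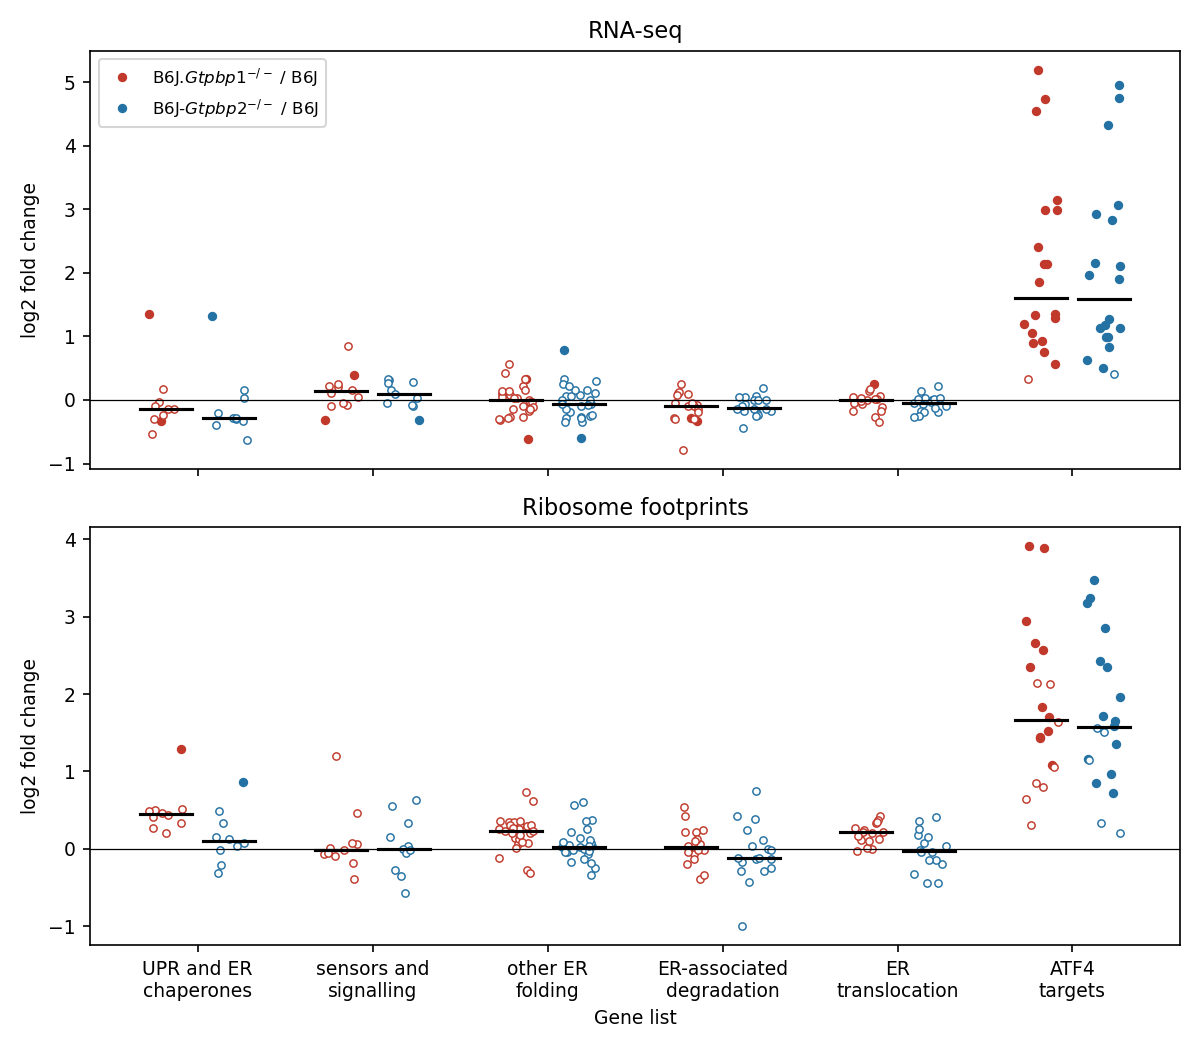
Log2 fold change against B6J of every gene in the 10-gene list and in 5 related lists, for both mutants, with RNA in the upper and footprints in the lower panels; bars are list medians and filled points passed an edgeR adjusted p of 0.05. The ATF4 targets have medians of 1.60 in RNA of both mutants, and the 10 genes have medians of -0.15 and -0.28.

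The targets of ATF4, the transcription factor of the integrated stress response, gave a different picture in the same libraries. Of 20 ATF4 targets, 19 were called higher by edgeR in RNA of each mutant, beside 1449 of 24577 genes in *Gtpbp1* and 898 of 24859 in *Gtpbp2* mutants, with a median log2 fold change of 1.60 in both, where the 10 genes had medians of -0.15 and -0.28. The list, which includes *Atf4* itself, was chosen with earlier results of these data known. Its counts in RNA and footprints are therefore a description and not an independent test. *Atf4* RNA measured 308, 314 and 346 CPM in *Gtpbp1* mutants, 277, 336 and 312 in *Gtpbp2* mutants and 148, 181 and 190.0 in B6J. *Ddit3*, the gene of CHOP, a factor that both PERK and other eIF2alpha kinases induce through ATF4, measured 52.5, 48.2 and 48.8 CPM in *Gtpbp1* mutants, 39.0, 52.0 and 47.7 in *Gtpbp2* mutants and 20.2, 19.6 and 21.4 in B6J. All mutant libraries lay above all B6J libraries for both genes. Their log2 fold changes were 0.90 and 0.83 for *Atf4* (edgeR adjusted p 5.20e-05 and 0.000914) and 1.29 and 1.18 for *Ddit3* (edgeR adjusted p 1.23e-06 and 0.000153).

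*Herpud1* RNA, at 1.35 and 1.33, lay beside *Ddit3*, at 1.29 and 1.18, in log2 fold change. *Chac1*, which degrades glutathione, rose by 2.99 and 2.93, *Trib3*, a pseudokinase, by 5.20 and 4.96, and *Ppp1r15a*, the gene of the eIF2alpha phosphatase subunit GADD34, by 0.76 and 0.62, all called by edgeR in both mutants (highest adjusted p 0.0102). The amino acid transporter *Slc7a3* rose by 4.73 and 4.76 and the secreted *Stc2* by 4.55 and 4.32. In footprints 12 of 20 ATF4 targets were called higher by edgeR in *Gtpbp1* mutants, beside 80 of 13956 genes, and 15 of 20 in *Gtpbp2* mutants, beside 176 of 13797 genes, with medians of 1.67 and 1.58.

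*Atf4* footprints rose in both mutants (1.71 and 1.59, edgeR adjusted p 0.0213 and 0.0184). The call ended in *Gtpbp1* mutants without *Gtpbp1* mutant replicate 1 (1.71, 0.107), *Gtpbp1* mutant replicate 3 (1.53, 0.0615) or B6J replicate 1 (1.60, 0.156), over a range of 4.86e-06 to 0.156 and in *Gtpbp2* mutants without *Gtpbp2* mutant replicate 1 (1.51, 0.0818), *Gtpbp2* mutant replicate 3 (1.56, 0.0537) or B6J replicate 1 (1.48, 0.0766), over a range of 3.48e-07 to 0.0818, as log2 fold change and edgeR adjusted p. *Ddit3* footprints rose in *Gtpbp1* mutants (1.84, edgeR adjusted p 0.0400) and were not called in *Gtpbp2* mutants (1.56, 0.0624, direct comparison 0.26, 0.812). That call ended without *Gtpbp1* mutant replicate 1 (1.78, 0.146), *Gtpbp1* mutant replicate 3 (1.72, 0.0602), B6J replicate 1 (1.75, 0.206) or B6J replicate 3 (1.58, 0.0792), and with sex as a covariate (2.01, 0.0665), over a range of 0.000974 to 0.206, and *Gtpbp2* mutants were called without B6J replicate 2 (1.98, 0.0492), by DESeq2 (1.56, 0.0232) and with no low-count filter (1.56, 0.0192).

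The RNA patterns most like those of 3 members differed from one another. Likeness was Pearson's r of log2 CPM over 9 RNA libraries of 3 genotypes among 19681 genes with 5 or more counts in all 9, given as a description. Genotype means were not removed. For *Herpud1*, which rose in both mutants, a high r can thus come from the difference to B6J alone, and shared regulation was not tested. For *Herpud1* the 5 most similar genes were *Shmt2*, *Yars*, *Chac1*, *Asns* (r = 0.997 for each) and *Kctd16* (0.996). *Shmt2*, *Chac1* and *Asns* belong to the list of ATF4 targets, and *Shmt2* measured 159, 149.9 and 159 CPM in *Gtpbp1* mutants, 131, 174 and 151 in *Gtpbp2* mutants and 34.4, 37.2 and 34.4 in B6J. For *Hspa5* they were *Rnft1* (0.952), *Fip1l1* (0.948), *Pdia6* (0.944), *Higd1a* (0.944) and *Calr* (0.940). *Pdia6* and *Calr* are ER folding genes, and *Pdia6* measured 68.4, 78.4 and 64.8 CPM in *Gtpbp1* mutants, 60.3, 63.6 and 70.6 in *Gtpbp2* mutants and 72.1, 71.1 and 94.1 in B6J. For *Dnajb9*, whose libraries hardly differed, they were *Ube2b* (0.933), *Dok4* (0.928), *Pibf1* (0.905), *Scoc* (0.901) and *Cul2* (0.898).

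The promoters of all 10 genes were found in the RefSeq table (GRCm38.p6), as windows of 300 bases from 250 before to 50 after the gene start of that table. These starts can differ from the GENCODE spans given above, so that the *Dnajb9* window lies wholly inside the *Dnajb9* span, and the *Hspa5* element printed below lies inside the *Hspa5* span. The ER stress element, through which ATF6 and XBP1 act, was searched on both strands as CCAAT and CCACG with 9 bases of any kind between them, and was present in 39 of 32851 promoters (0.119%). The second ER stress element (ATTGG and CCACG with 1 base between them) was present in 12 (0.0365%), and an ATF4 element (TGATG and AAT with 1 base between them) in 317 (0.965%). Of the 10 genes, 4 held the ER stress element, 1 held the second ER stress element, 0 held the ATF4 element and 5 held none of them (*Dnajb9*, *Xbp1*, *Sdf2l1*, *Pdia4* and *Edem1*). No match says only that the letters are absent from the window, which for *Dnajb9* held no base upstream of the GENCODE span.

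The matches are shown so that the promoter of *Herpud1* can be read beside those of the chaperones. The part of these elements in the RNA levels was not tested. Capitals mark the element, each sequence reads in the direction of the gene, and an element in the opposite orientation appears as its reverse complement. *Hspa5* held it 65 to 47 bases before the RefSeq gene start (chr2:34772005-34772063, plus strand). *Hsp90b1* held it 212 to 194 bases before (chr10:86705618-86705676, minus strand) and, in the opposite orientation, 107 to 89 bases before (chr10:86705513-86705571). *Calr* held it in the opposite orientation 162 to 144 bases before (chr8:84847055-84847113, minus strand), and *Creld2* in the opposite orientation 126 to 108 bases before (chr15:88819500-88819558, plus strand). *Herpud1* held the second element 52 to 42 bases before the gene start (chr8:94386357-94386407, plus strand).
Hspa5: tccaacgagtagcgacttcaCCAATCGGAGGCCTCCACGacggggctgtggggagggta
Hsp90b1, the first match: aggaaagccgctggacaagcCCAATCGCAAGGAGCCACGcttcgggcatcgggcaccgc
Hsp90b1, the second match: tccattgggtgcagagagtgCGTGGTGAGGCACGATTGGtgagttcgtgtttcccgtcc
Calr: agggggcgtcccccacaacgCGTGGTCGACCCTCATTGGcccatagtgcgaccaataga
Creld2: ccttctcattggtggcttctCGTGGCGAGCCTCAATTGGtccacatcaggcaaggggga
Herpud1: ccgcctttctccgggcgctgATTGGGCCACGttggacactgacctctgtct

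Other lists held the same elements. Of 22 ER folding genes with a promoter in the table, 4 held the ER stress element (*Dnajc3*, *Pdia6*, *Canx* and *Ero1b*) and 1 the second element (*Dnajb11*). Of 13 degradation genes 2 held the ER stress element (*Syvn1* and *Derl3*), and of 8 sensing, 12 translocation and 18 ATF4 target genes 0 held either. Of the 18 ATF4 targets 1, *Nupr1*, held the ATF4 element.

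All mice carried the *n-Tr20* mutation, so the AGA codons of the 10 genes were counted. Their median was 6.96 AGA codons per 1000 codons, beside 11.2 over 21753 genes with a complete coding sequence. In 4 of 10 the density was above that median, with 22.5 per 1000 in *Dnajb9* (5 codons), 18.7 in *Hsp90b1* (15), 14.98 in *Xbp1* (4) and 12.3 in *Edem1* (8). *Herpud1* held 3 AGA codons (7.67 per 1000), *Pdia4* 4 (6.24), *Creld2* 2 (5.71), *Hspa5* 3 (4.58), *Calr* 1 (2.40) and *Sdf2l1* 0.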

How the data were processed

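RNA sequencing (9 libraries) and ribosome profiling (9 libraries) of mouse cerebellum were used, with 3 libraries for each of 3 genotypes in each assay, labelled Batch 1 for RNA and Batch 2 for footprints. For RNA the authors deposited estimated counts (expected counts) per transcript from kallisto 0.42.4 and Gencode M20, summed here per gene and rounded. The authors also deposited TPM per transcript, summed here per gene without rescaling, and the effective length of each transcript, used here for the length offset. For footprints the authors deposited read counts per gene, from reads that the submitters' processing notes say were cleared of ribosomal RNA with Bowtie2 2.2.3, aligned with HISAT2 2.1.0 and counted with featureCounts.

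Counts were fitted with edgeR 4.0.16 (robust quasi-likelihood test, TMM, limma 3.58.1, R 4.3.3), for each pair of genotypes over its 6 libraries, a gene being fitted where 3 or more of those libraries held 5 or more counts. Translation efficiency was the assay by genotype term over 12 libraries, for genes reaching 10 counts in 3 or more of the 6 libraries of each assay, histone genes being left out. Calls are two-sided at a Benjamini-Hochberg adjusted p of 0.05 over all genes tested. Standard errors are the log2 fold change divided by the root of F. Alternatives were DESeq2 1.42.0, no low-count filter, upper quartile scaling, the replicate number as a block, sex read from *Ddx3y* (10 CPM or more taken as male) as a covariate, a fit of all 9 libraries, an offset for transcript length (RNA only), and leaving out each library (for translation efficiency, the RNA and footprint libraries of 1 genotype and number together). Sex and the fit of all 9 libraries were not run for translation efficiency. Sequences, codon counts, tables and figures were made with Python 3.11.15, numpy 2.4.6, pandas 2.3.3 and matplotlib 3.10.9, promoters coming from RefSeq.

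Genes named were the 10 listed genes, *Ern1*, *Eif2ak3*, *Atf6*, *Atf4*, *Ddit3*, *Chac1*, *Trib3* and *Ppp1r15a* whatever their values, and from each other list at most 3 genes per direction with the largest RNA log2 fold change among those called in either mutant. The 5 genes of highest Pearson r over the 9 RNA libraries were named for *Hspa5*, *Herpud1* and *Dnajb9*, among genes reaching 5 counts in all 9. The other lists were ER stress sensors and signalling (12 genes), further ER folding genes (27), ER-associated degradation (18), ER translocation (17), ATF4 targets (20) and markers of granule neurons, Purkinje cells, astrocytes and Bergmann glia, oligodendrocytes, microglia, choroid plexus and skeletal muscle (6 each), bone and connective tissue (8) and blood and antibody-secreting cells (7). Members and lists were chosen with earlier results of these data known.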

Additional observations from a re-analysis of the deposited data

How the results depend on the processing

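Of 950 values of the 10 genes under an alternative, 884 kept their direction and their side of the threshold, 18 kept the direction and lost the call, 9 gained a call and 39 turned direction, none of those 39 for a called value. For the other named genes the counts were 579, 87, 10 and 6 of 682. The *Herpud1* call in RNA held under every alternative run, with a log2 fold change of 1.29 to 1.38 in *Gtpbp1* mutants and 1.25 to 1.42 in *Gtpbp2* mutants on leaving out a library.

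The number of the 10 genes called in RNA of *Gtpbp1* mutants (2) was 4 with no low-count filter (*Xbp1* and *Sdf2l1* added), where 4325 of 36286 genes were called. It was 1 with upper quartile scaling, the sex covariate, all 9 libraries or the length offset. Over all genes these fits called 3349, 2301, 3433 and 2233 of 24577. On leaving out a library the number was 1 to 2. In *Gtpbp2* mutants (1) it was 2 by DESeq2, where 3282 of 24859 genes were called, and 3 with no filter, where 2894 of 36546 were. There it was 2 with all 9 libraries, where 2873 of 24859 genes were called, and 2 with the length offset, where 1351 were. In footprints it was 0 to 1 on leaving out a library in *Gtpbp1* mutants (0 without B6J replicate 1 or 2) and in *Gtpbp2* mutants (0 without *Gtpbp2* mutant replicate 1 or 3 or B6J replicate 1 or 2), and 0 in *Gtpbp2* mutants with the sex covariate and with all 9 libraries. Where a library was left out, fewer samples were fitted; for the other settings the cause was not tested.

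With replicate number as a block, 1 of the 10 genes was called in RNA of *Gtpbp1* mutants (*Herpud1*), beside 2237 of 24577 genes. In *Gtpbp2* mutants 3 were called (*Herpud1*, *Hspa5* and *Calr*), beside 2130 of 24859 genes. The block also ended the RNA calls of *Atf6*, *Atf6b*, *Fkbp2*, *Os9* and *Ssr3* in *Gtpbp1* mutants and of *Atf6b* in *Gtpbp2* mutants, and the footprint calls of *Atf4* and *Ddit3* in *Gtpbp1* mutants. Libraries of the same number did not pair: over 9 pairs each, r of their deviations from the group mean was -0.166 to 0.255 within RNA, -0.299 to 0.141 within footprints and -0.144 to 0.141 between RNA and footprints, and 2 of 9 pairs of RNA and footprint libraries differed in sex.

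Values that turned direction were all uncalled, and the cause was not tested. With upper quartile scaling *Dnajb9* was 0.026 (RNA, *Gtpbp1* mutants) and *Creld2* 0.0071 (footprints, *Gtpbp2* mutants). With the sex covariate, *Hspa5* was -0.066, *Sdf2l1* -0.013 and *Calr* -0.046 between the mutants in RNA and *Hspa5* -0.064 in footprints, *Atf6* was 0.0067 in footprints of *Gtpbp1* mutants, and *Creld2* was 0.17 and *Eif2ak3* 0.011 in footprints of *Gtpbp2* mutants. Between the mutants in RNA, *Xbp1* was -0.0023 with no filter and -0.039 with the length offset, which gave *Edem1* -0.14. On leaving out a library, RNA values ran from -0.066 to 0.016 for *Dnajb9* and -0.19 to 0.016 for *Pdia4* in *Gtpbp1* mutants, and -0.012 to 0.089 for *Dnajb9* in *Gtpbp2* mutants. Between the mutants they ran from -0.0028 to 0.23 for *Hspa5*, -0.075 to 0.10 for *Herpud1*, -0.11 to 0.13 for *Xbp1*, -0.039 to 0.21 for *Sdf2l1*, -0.028 to 0.23 for *Pdia4*, -0.017 to 0.13 for *Calr* and -0.024 to 0.068 for *Edem1*. Footprint values ran from -0.14 to 0.42 for *Edem1*, -0.048 to 0.17 for *Ern1* and -0.24 to 0.026 for *Atf6* in *Gtpbp1* mutants, -0.0043 to 0.12 for *Calr* and -0.10 to 0.075 for *Creld2* in *Gtpbp2* mutants, and -0.052 to 0.19 for *Hspa5* between them. Translation efficiency, with the RNA and footprint libraries of a genotype and number left out together, ran from -0.16 to 0.10 for *Herpud1* and -0.30 to 0.29 for *Edem1* in *Gtpbp1* mutants, and -0.090 to 0.53 for *Sdf2l1* and -0.014 to 0.52 for *Creld2* in *Gtpbp2* mutants.

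Counts over all genes moved by more than 1.5 times in some fits. RNA of *Gtpbp1* mutants (3398) gave 2237 with the block, 2233 with the length offset and 1890 to 3798 on leaving out a library. RNA of *Gtpbp2* mutants (2146) gave 3282 by DESeq2, 1071 with sex, 1351 with the length offset and 953 to 2357 on leaving out a library. RNA between the mutants (15) gave 42 by DESeq2, 36 with no filter, 9 with sex and 9 to 17. Footprints of *Gtpbp1* mutants (104) gave 406 by DESeq2, 213 with no filter, 44 with the block, 56 with sex, 202 with all 9 libraries and 22 to 186, and those of *Gtpbp2* mutants (406) gave 634 by DESeq2, 45 with sex, 268 with all 9 libraries and 106 to 619. Between the mutants (0) they gave 91 by DESeq2, 15 with no filter, 3 with upper quartile scaling, 1 with the block, 1 with all 9 libraries and 0 to 33. Translation efficiency gave 52 by DESeq2 and 0 to 18 in *Gtpbp1* mutants (0), and 160 by DESeq2, 2 with no filter, 0 with the block and 0 to 42 in *Gtpbp2* mutants (1). Upper quartile scaling turned 1449 higher and 1949 lower into 1837 and 1512 in RNA of *Gtpbp1* mutants, and 898 and 1248 into 1074 and 941 in *Gtpbp2* mutants. Footprint libraries held fewer counts than RNA libraries, and the part of depth in the missing footprint calls was not tested.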

Other observations

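Within the span of *Ddit3* (chr10:127290774-127296288), upstream of its main coding sequence, the footprint tables list a short gene of the same symbol, with 102 nucleotides of coding sequence in 2 exons (chr10:127290829-127293750), while the main coding sequence lies at chr10:127295341-127296088. It had 0 counts in every RNA library. Its footprints measured 23.9, 11.4 and 22.5 CPM in *Gtpbp1* mutants, 18.1, 13.2 and 16.6 in *Gtpbp2* mutants and 5.15, 6.17 and 6.20 in B6J. All mutant libraries lay above all B6J libraries, and both differences were called (log2 fold change 1.71, edgeR adjusted p 0.0332 in *Gtpbp1* mutants, and 1.44, adjusted p 0.0120 in *Gtpbp2* mutants). Between the mutants the value was 0.25 (edgeR adjusted p 0.791). This gene was named after its values were seen.

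*Manf*, a secreted factor that ER stress induces, was likewise named after its values were seen. In footprints of *Gtpbp1* mutants its log2 fold change was 0.73 (edgeR adjusted p 0.108), and in *Gtpbp2* mutants it was 0.37 (edgeR adjusted p 0.248). In RNA the values were -0.30 (edgeR adjusted p 0.0689) and -0.29 (edgeR adjusted p 0.140). DESeq2 called its footprints higher in *Gtpbp1* mutants and its translation efficiency higher in both mutants.

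More genes had a count in the RNA libraries of the mutants (29786 to 31418) than in those of B6J replicates 1 and 3 (26293 and 26139), and B6J replicate 2 had 29681.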
